A study of Mus musculus with 5 samples.

Results

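Macrophages were picked out of 3 whole-tumor single-cell RNA sequencing libraries of 4T1 mammary tumors and described across the control-labelled, sensitive-labelled and resistant-labelled library. A kept barcode (at least 200 detected genes) counted as a macrophage when it held unique molecular identifiers (UMIs) of at least 3 of 8 genes, C1qa, C1qb, C1qc, Apoe, Adgre1, Csf1r, Ms4a7 and Mrc1, with no UMI of Cd3e or Epcam and fewer than 3 of Col1a1. The rule took 59 of 1020 kept barcodes, namely 13 of 488 in the control-labelled, 10 of 269 in the sensitive-labelled and 36 of 263 in the resistant-labelled library. The cells were thus selected on the measured UMIs of those 8 genes, whose levels are given as descriptions and are not results.

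The tumors grew from 4T1 cells, a BALB/c mammary carcinoma line, injected into the fat pad of a mammary gland in host mice of that strain, which have an intact immune system and were labelled as 12 weeks old. The sensitive-labelled and resistant-labelled tumors came from mice given 3 intravenous doses of doxorubicin (DOX, a DNA-damaging chemotherapy) at 5 mg/kg, 3 days apart, and the control-labelled cells from tumor tissue after saline. In the study, sensitive tumors were those whose growth DOX held back and resistant tumors those that kept growing. Each group had 1 library, how many tumors went into each was not given in the sources used here, and no difference between libraries has a replicate check. The labels of the resistant library conflict, as its source is named as a sensitive tumor but its title and its sensitivity entry say resistant, so groups are called by their label throughout. The control library is also named as coming from sensitive tumors, given saline, with no sensitivity entry.

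Tumor macrophages clear dead cells and debris, present antigen to T cells on MHC class II, and release chemokines that draw in further blood cells. They arise from monocytes entering from blood and from cells resident in the tissue. The C1q genes encode the recognition subunits that start the classical complement pathway, Apoe encodes a lipid carrier, Csf1r is the receptor for the growth factor that macrophages depend on, and Mrc1 is the mannose receptor.

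Macrophages were deeper than the typical barcode, as kept barcodes had medians of 1556, 1476 and 2752 UMIs in the control-labelled, sensitive-labelled and resistant-labelled library. Macrophage medians were 3709 UMIs (range 698 to 11064), 4898.5 (1001 to 13023) and 5660.5 (1147 to 17805) in the same order. Summed over macrophages this gave 52860, 53918 and 238146 UMIs, so a gene could be measured about as finely in the first and second library and more finely in the resistant-labelled one. The deepest single macrophage supplied 20.9% and 24.2% of the summed UMIs in the control-labelled and sensitive-labelled library and 7.48% in the resistant-labelled one. None of the mitochondrial features listed held a UMI, so the mitochondrial share could not be used as a sign of cell damage. No barcode sequence was shared between libraries. Brackets after a value give its 95% interval, and intervals cover counting error only.

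The label was checked against markers of other cells. Ctss, which encodes a lysosomal protease of antigen-presenting cells and was not used by the rule, is given as a description only, since it was chosen after its values were seen. A Ctss UMI was present in 13 of 13, 10 of 10 and 36 of 36 macrophages, against 35 of 349, 55 of 222 and 66 of 173 neutrophil-gated cells of the control-labelled, sensitive-labelled and resistant-labelled library. Neutrophil-gated cells are kept barcodes outside the macrophage rule with UMIs of at least 3 of 7 neutrophil genes, 744 in all. Their median depth was 1586, 1543.5 and 2610 UMIs, and after thinning to 1000 UMIs Ctss was found in 10 of 11, 9 of 10 and 35 of 36 macrophages against 21 of 330, 33 of 188 and 28 of 169 of them. At least 1 C1q gene was found in 51 macrophages, all 3 C1q genes in 37, and none in 8. Defining markers of other cells were near 0, as summed over all macrophages of a library there were 0, 1 and 2 UMIs of the 10 dendritic cell markers, 2, 0 and 4 of the 8 T cell markers, 0, 0 and 1 of the 6 natural killer cell markers and none of the 6 mast cell or basophil markers. The 8 cancer cell markers summed to 5, 4 and 17 UMIs, the 8 fibroblast markers to 8, 0 and 10, the 6 endothelial markers to 1, 2 and 9, the 7 B or plasma cell markers to 1, 0 and 5 and the 5 erythroid markers to 1, 0 and 0. The T cell, cancer cell and fibroblast markers include Cd3e, Epcam and Col1a1. For these 3 genes the low counts were set by the rule and are no check of the label.

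Neutrophil transcripts were the exception. The 10 neutrophil markers summed to 3311, 9144 and 1041 CPM, the UMIs of a gene scaled to 1000000 UMIs summed over the macrophages of a library, in the control-labelled, sensitive-labelled and resistant-labelled library, with S100a8 and S100a9 making up most of it and Ly6g, a defining neutrophil surface gene, at 0 in each. Of the macrophages, 7 of 13, 7 of 10 and 16 of 36 would also have passed the neutrophil gate. One sensitive-labelled cell held 221 of the 280 S100a8 UMIs there. Putative doublets were not removed, and the part of neutrophil RNA in the results below was not tested except where a value without the gated cells is given. The 8 monocyte markers, among them Ly6c2, Ccr2 and Plac8, summed to 3519, 5175 and 2986 CPM.

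The first question was whether the share of macrophages differed with treatment and response. Of kept barcodes, macrophages were 2.66% (1.43 to 4.51) of control-labelled, 3.72% (1.80 to 6.73) of sensitive-labelled and 13.7% (9.77 to 18.4) of resistant-labelled barcodes. The resistant-labelled share was 5.14-fold that of the control-labelled library (2.77 to 9.52) and 3.68-fold that of the sensitive-labelled library (1.87 to 7.27). For the sensitive-labelled against the control-labelled library the ratio of 1.40 had an interval from 0.620 to 3.14, which includes 1.

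Because membership needs UMIs of several genes, deeper barcodes qualify more easily. After each barcode had been thinned to 1000 UMIs, which left 442, 215 and 254 barcodes, the shares were 2.04% (0.935 to 3.83), 3.26% (1.32 to 6.59) and 12.99% (9.11 to 17.8). The resistant over control ratio was then 6.38 (3.10 to 13.1). With neutrophil-gated cells left out of the denominator, macrophages were 13 of 139, 10 of 47 and 36 of 90 remaining barcodes. That brought the resistant over sensitive ratio down to 1.88 (1.03 to 3.44) and the sensitive over control ratio up to 2.27 (1.07 to 4.84), an interval that leaves out 1.

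**Figure D1:**
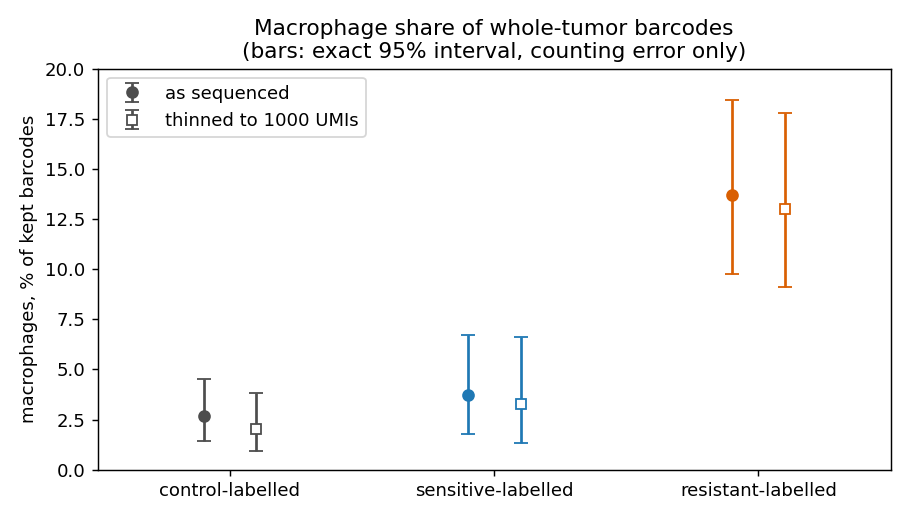
Share of kept whole-tumor barcodes (y axis, percent) that met the macrophage rule in the control-labelled, sensitive-labelled and resistant-labelled library. Filled circles are barcodes as sequenced, open squares barcodes thinned to 1000 UMIs, and bars are exact Clopper-Pearson 95% intervals; the resistant-labelled share of 13.7% lies above the intervals of both other libraries.

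Cells at the edge of the rule were examined. Exactly 3 of the 8 genes were detected in 4, 3 and 3 barcodes of the control-labelled, sensitive-labelled and resistant-labelled library, and 2 of the last were left out because of an excluded gene. Exactly 2 were detected in 9, 9 and 39 barcodes, which stayed outside. Of the 39 in the resistant-labelled library, 37 held Apoe, 16 held a C1q gene and 27 passed the neutrophil gate. Apoe was found in 47.4% of neutrophil-gated cells of the resistant-labelled library, against 9.17% in the control-labelled and 15.8% in the sensitive-labelled one, while C1qa was found in 5.78%, 0% and 0.901% of them.

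The second question was which genes differed inside macrophages between libraries. Gene levels were compared as CPM over the summed UMIs of macrophages, for genes with at least 50 UMIs over both libraries, and a gene was counted as past 2-fold at a ratio of at least 2 or at most 0.5. With 1 library a group there is no test, so these counts are descriptions of size. Between resistant-labelled and control-labelled macrophages 86 of 791 compared genes, or 10.9%, were past 2-fold, with 57 higher (7.21%) and 29 lower (3.67%). Between sensitive-labelled and control-labelled macrophages it was 30 of 333, or 9.01%, with 17 higher (5.11%) and 13 lower (3.90%). Between resistant-labelled and sensitive-labelled macrophages it was 111 of 795, or 14.0%, with 69 higher (8.68%) and 42 lower (5.28%). The comparisons share libraries and are not independent of each other. Many named ratios did not keep past 2-fold when the cells or the depth were changed. In every alternative run 6 of 36 did so for resistant over control, 0 of 27 for sensitive over control and 5 of 40 for resistant over sensitive.

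Relative to the control-labelled library, resistant-labelled macrophages held more transcripts of Ccl12, Ccl7, Ly6e, Irf7 and the activating IgG receptor Fcgr4. Lyz2 and the MHC class II genes compared were within 2-fold, although with 2 of 8 rule genes required H2-Aa was at 0.423 and H2-Eb1 at 0.353. Under the naming rule the 10 highest ratios were those of Slc15a3, Ly6c2, Ccl12, Ly6e, Hal, Fcgr4, AA467197, Tcn2, Irf7 and Slirp. The 10 lowest were those of S100a8, Polr2l, S100a9, 2410006H16Rik, Hmgn2, Crip1, Atf3, Cebpb, Hmgb1 and Ndrg1.

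Chemokines were the list with most genes past 2-fold in this pair. Of 13 compared, 5 were higher (Ccl3, Ccl7, Ccl8, Ccl12 and Cxcl14), against 7.21% of all compared genes, and 3 lower (Ccl24, Cxcl1 and Cxcl2), against 3.67%, with a median log2 ratio of 0.95 beside 0.02 over all compared genes. Single cells weighed on these counts. One control-labelled cell held 39 of the 41 Cxcl1 UMIs there, and the Cxcl1 ratio turned to 6.52 without the richest cell of each library, 7.11 with 4 of 8 rule genes and 5.53 with at least 2 C1q genes. The Cxcl14 ratio rested on 3 control-labelled UMIs and turned to 0.709 without members in the neutrophil gate. Ccl2, Ccl7, Ccl12 and Ccl8 lie within 1 stretch of chromosome 11 of GRCm38, from 82035571 at the start of Ccl2 to 82116799 at the end of Ccl8. The products of Ccl2, Ccl7 and Ccl12 bind receptors that draw monocytes out of blood. For Ccl12 the control-labelled level was 94.6 CPM (30.7 to 221), the sensitive-labelled level 816 (593 to 1096) and the resistant-labelled level 1025 (900.05 to 1162). The resistant over control ratio of Ccl12 was 10.8 (4.58 to 33.7). The control-labelled level of Ccl12 rested on 5 UMIs in 3 cells, and in the sensitive-labelled library 29 of its 44 UMIs were in 1 cell. The sensitive-labelled and control-labelled libraries were not compared for it, as together they held fewer than 50 UMIs.

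Ccl8 stood at 1873, 1614 and 4149 CPM in the control-labelled, sensitive-labelled and resistant-labelled macrophages. Its resistant over control ratio was 2.22 (1.80 to 2.75). Per cell, Ccl8 ranged from 0 to 828 UMIs per 10000 in the resistant-labelled library with a median of 0, as 17 of 36 cells held any and 1 cell held 447 of the 988 UMIs. Without the cell richest in Ccl8 in each library the ratio was 3.45 (2.42 to 5.10). It was below 2-fold in 5 other alternatives, at 1.71 with 4 of 8 rule genes, 1.72 with at least 2 C1q genes, 1.77 with at least 2000 UMIs, 1.88 without members in the neutrophil gate and 1.91 without the deepest cells. Ccl7 stood at 662 CPM in control-labelled, 2597 in sensitive-labelled and 1785 in resistant-labelled macrophages. Without members in the neutrophil gate the Ccl7 ratio of sensitive over control turned to at most 0.685, against a floor of 3 counts for the sensitive-labelled library, while resistant over control was 9.90. In the sensitive-labelled library 103 of the 140 Ccl7 UMIs were in 1 cell, whereas in the resistant-labelled one 26 of 36 cells held Ccl7 and the richest held 40 of 425. Ccl2, at 776, 538 and 1302 CPM, had a resistant over control ratio of 1.68 (1.21 to 2.39) and did not pass 2-fold. It passed in 3 alternatives, at 2.37 with 2 of 8 rule genes, 2.73 without the richest cells and 4.62 with at least 2 C1q genes.

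In the opposite direction, Ccl24, which attracts eosinophils, stood at 2649 CPM in control-labelled, 1781 in sensitive-labelled and 815 in resistant-labelled macrophages. One control-labelled cell held 100 of the 140 Ccl24 UMIs there, and without the richest cell of each library the resistant over control ratio was 0.683 (0.475 to 1.00). It turned to 1.38 without members in the neutrophil gate and 1.15 with at least 2 C1q genes. The neutrophil attractant Cxcl2 stood at 4294 CPM in the control-labelled, 2151 in the sensitive-labelled and 2037 in the resistant-labelled library, a resistant over control ratio of 0.474 (0.404 to 0.558). With only cells that held at least 2 C1q genes the Cxcl2 ratio was 1.40. Neutrophil-gated cells carried more Cxcl2 than macrophages in every library, at 6138, 13886 and 5202 CPM.

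**Figure D2:**
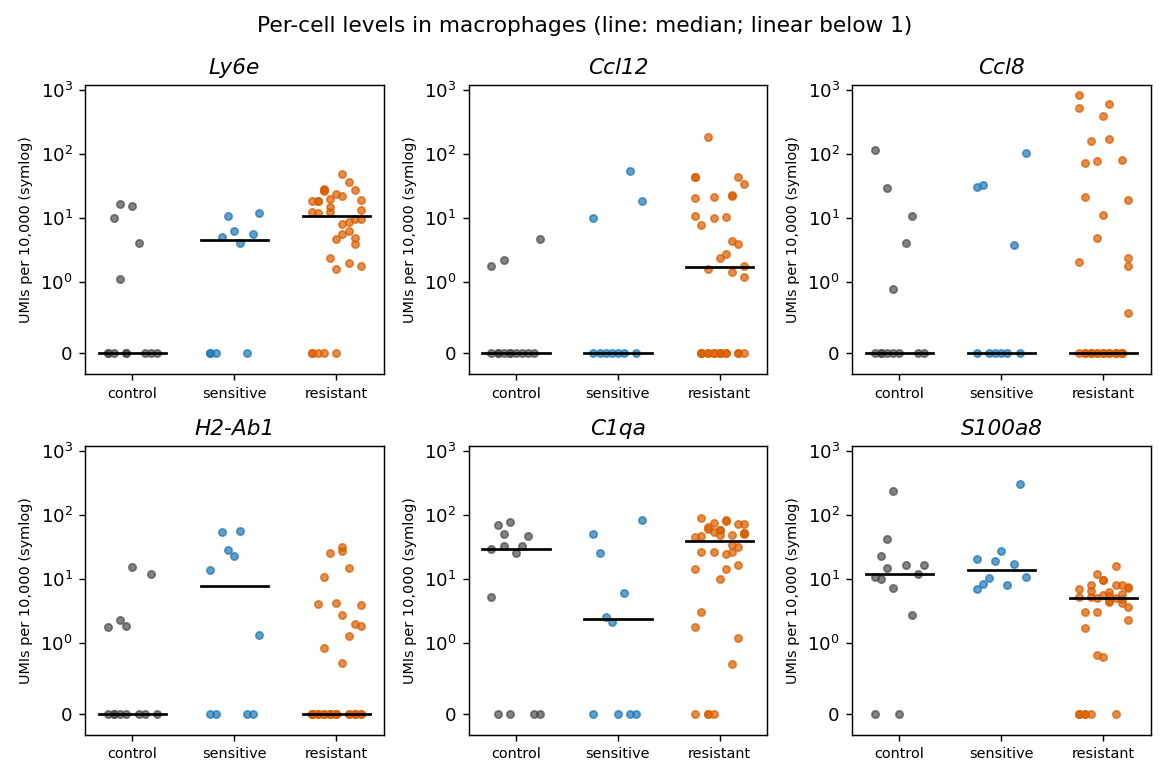
Level of 6 genes in every macrophage, in UMIs per 10000 UMIs of the cell (symmetrical log axis, linear below 1), for 13 control-labelled, 10 sensitive-labelled and 36 resistant-labelled cells. Each point is a cell and the line is the median; Ly6e was detected in 31 of 36 resistant-labelled cells, and H2-Ab1 lay above 10 in 5 of the 10 sensitive-labelled cells.

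Of 20 interferon-response genes listed, 5 had enough UMIs to compare with the control-labelled library. Past 2-fold higher were 2 of them (Irf7 and Bst2), against 7.21% of all compared genes, with a median log2 ratio of 0.72. All 5 had ratios above 1, but Isg15, among them at 1.15, fell below 1 in 3 alternatives. Irf7, the factor that amplifies type I interferon production, stood at 75.7, 241 and 323 CPM and its resistant over control ratio was 4.27 (1.60 to 16.1). Bst2, which encodes tetherin, a membrane protein that holds budding virus on the cell surface, stood at 322, 427 and 676 CPM, with a ratio of 2.10 (1.27 to 3.70). The Bst2 ratio fell below 2-fold without members in the neutrophil gate (1.14), with 4 of 8 rule genes (1.72) and with at least 2 C1q genes (1.64), and after thinning the Irf7 ratio could be bounded only as at least 1.43. Ifi27l2a, at 965, 1410 and 1587 CPM, had a ratio of 1.65 (1.23 to 2.25).

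Ly6e, an interferon-induced surface protein outside that list, had one of the highest ratios. Its control-labelled level was 151 CPM (65.3 to 298), its sensitive-labelled level 464 (300.1 to 684) and its resistant-labelled level 1365 (1220.4 to 1521). The resistant over control ratio was 9.02 (4.52 to 21.1). Its size moved with the cells counted, from 2.93 after thinning, 3.20 with 2 of 8 rule genes, 3.60 by the mean over cells and 4.13 without members in the neutrophil gate to 32.3 with at least 2000 UMIs. A Ly6e UMI was present in 5 of 13, 6 of 10 and 31 of 36 cells, and after thinning to 1000 UMIs in 2 of 11, 4 of 10 and 21 of 36. Neutrophil-gated cells differed the same way, with a resistant over control ratio of 4.11 for Ly6e, 5.85 for Irf7 and 5.30 for Bst2, so these genes were also higher in the other main cell group of the resistant-labelled library.

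Isg15 encodes a ubiquitin-like interferon-induced protein. Its levels in control-labelled, sensitive-labelled and resistant-labelled macrophages were 492, 130 and 567 CPM, with 24 of the 26 control-labelled UMIs in 1 cell. The resistant over control ratio of 1.15 was thus not settled, as it was 11.2 (3.01 to 93.3) without the richest cells, 21.3 with at least 2 C1q genes and 5.995 without members in the neutrophil gate, but 0.985 without the deepest cells, 0.925 with 4 of 8 rule genes and 0.611 after thinning. The resistant over sensitive ratio of Isg15 was 4.37 (2.06 to 11.1). In neutrophil-gated cells it stood at 288, 1940 and 616 CPM, highest in the sensitive-labelled library, where macrophages were lowest.

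Fcgr4, which lies on chromosome 1 (171018920 to 171029761, GRCm38), encodes a receptor for IgG that triggers killing and phagocytosis. It stood at 94.6, 130 and 504 CPM in control-labelled, sensitive-labelled and resistant-labelled macrophages, 5.33-fold (2.22 to 16.7) above the control-labelled library and 3.88-fold (1.83 to 9.86) above the sensitive-labelled one. A UMI was found in 3 of 13, 6 of 10 and 25 of 36 cells. In neutrophil-gated cells, which also use this receptor, 23.5%, 40.5% and 46.2% held one, so the share among control-labelled macrophages was not above that background. Of the 11 Fc and phagocytic receptors compared with the control-labelled library, Fcgr4 was the 1 past 2-fold higher, against 7.21% of all compared genes. None was lower, against 3.67%, and the median log2 ratio was 0.14 beside 0.02 over all compared genes.

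The promoters of 3 of these genes are shown because they carry GAAA, any 2 bases and GAAA again, the core of the element bound by interferon-activated factors. Each run is the 150 bases before the start in RefSeq (GRCm38.p6), read 5′ to 3′ on the strand of the gene, with the matches in capitals. The Fcgr4 window is chr1:171018776-171018925 (plus strand), the Bst2 window chr8:71537473-71537622 (minus strand) and the Isg15 window chr4:156200819-156200968 (minus strand), and in Bst2 and Isg15 the 2 and 3 matches overlap.
Fcgr4: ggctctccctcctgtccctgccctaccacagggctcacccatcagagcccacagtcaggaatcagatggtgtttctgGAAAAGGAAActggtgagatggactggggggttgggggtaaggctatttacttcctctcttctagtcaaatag
Bst2: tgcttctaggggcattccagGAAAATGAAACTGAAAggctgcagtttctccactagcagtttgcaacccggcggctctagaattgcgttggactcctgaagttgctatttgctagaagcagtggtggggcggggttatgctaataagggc
Isg15: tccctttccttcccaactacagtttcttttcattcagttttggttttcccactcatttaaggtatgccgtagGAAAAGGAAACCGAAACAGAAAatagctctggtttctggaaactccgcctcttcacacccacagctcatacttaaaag

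Matches were sought on both strands. In windows of this length 1.59% of 32851 RefSeq promoters held the letters, and in the full 300 bases 3.44%. Of the 14 interferon-response genes with a promoter in the table, 9 held them in the full 300 bases, against 1 of 11 chemokines. These matches describe the sequence only. Irf7 had no match, and Ly6e, Ifi27l2a, Slc15a3, Ccl2 and Ccl7 had no entry.

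Further genes were higher in resistant-labelled than control-labelled macrophages. Slc15a3, a transporter of histidine and peptides in endosomes, rested on 1 UMI in the control-labelled, 9 in the sensitive-labelled and 79 in the resistant-labelled library, a ratio of 17.5 (3.06 to 701). It was found in 26 of 36 resistant-labelled macrophages, but also in 31.5% of control-labelled neutrophil-gated cells, well above the share in the macrophages of that library. Ly6c2, a surface marker of inflammatory monocytes, gave 1, 12 and 57 UMIs in 1, 3 and 9 cells, with a ratio of 12.7 (2.18 to 508). Without the richest cell of each library no control-labelled Ly6c2 UMI remained, and the ratio, against a floor of 3 counts, was at least 2.35. Tcn2, which carries vitamin B12, gave 3, 2 and 59 UMIs spread over 28 of 36 resistant-labelled cells, with a resistant over control ratio of 4.37 (1.42 to 21.8).

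Of 10 genes of the alternative activation and tissue residence list compared between resistant-labelled and control-labelled macrophages, 7 had ratios below 1. The median log2 ratio was -0.46 beside 0.02 over all compared genes. Past 2-fold higher were 2 of the 10, against 7.21% of all compared genes, and 1 was lower, against 3.67%. Pf4, a platelet chemokine also made by resident macrophages, was past 2-fold lower at 0.494 (0.404 to 0.607), but 1 control-labelled cell held 132 of 141 UMIs, and without the richest cells the ratio turned to 4.75 (2.46 to 10.5). Chil3, past 2-fold higher, had 100 of its 111 resistant-labelled UMIs in 1 cell. Without the richest cells the control-labelled library held no Chil3, and the ratio could be bounded only as at least 0.770 against a floor of 3 counts.

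Among genes lower in resistant-labelled macrophages, S100a8 and S100a9, the calprotectin subunits abundant in neutrophils, had ratios over the control-labelled library of 0.264 (0.201 to 0.348) and 0.324 (0.230 to 0.459). Their levels in neutrophil-gated cells were lower likewise, with ratios of 0.360 and 0.408. Cebpb, a transcription factor of the myeloid lineage, stood at 4616, 3580 and 1999 CPM, a ratio of 0.433 (0.370 to 0.507). It was found in nearly all cells, with a median of 36.7, 38.1 and 20.4 UMIs per 10000 per cell, and the 3 ranges overlapped. Its ratio in neutrophil-gated cells was 0.524. Crip1, at 2365, 1762 and 953 CPM, had a ratio of 0.403 (0.323 to 0.506) in macrophages and 1.48 in neutrophil-gated cells. Without members in the neutrophil gate the macrophage ratios of S100a9, Cebpb and Crip1 were 0.625, 0.814 and 0.659, and with at least 2 C1q genes 0.555, 0.575 and 0.903. Fabp5, a fatty acid carrier, stood at 1703, 185 and 302 CPM, a ratio of 0.178 for resistant over control, and 50 of its 90 control-labelled UMIs were in 1 cell.

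**Figure D3:**
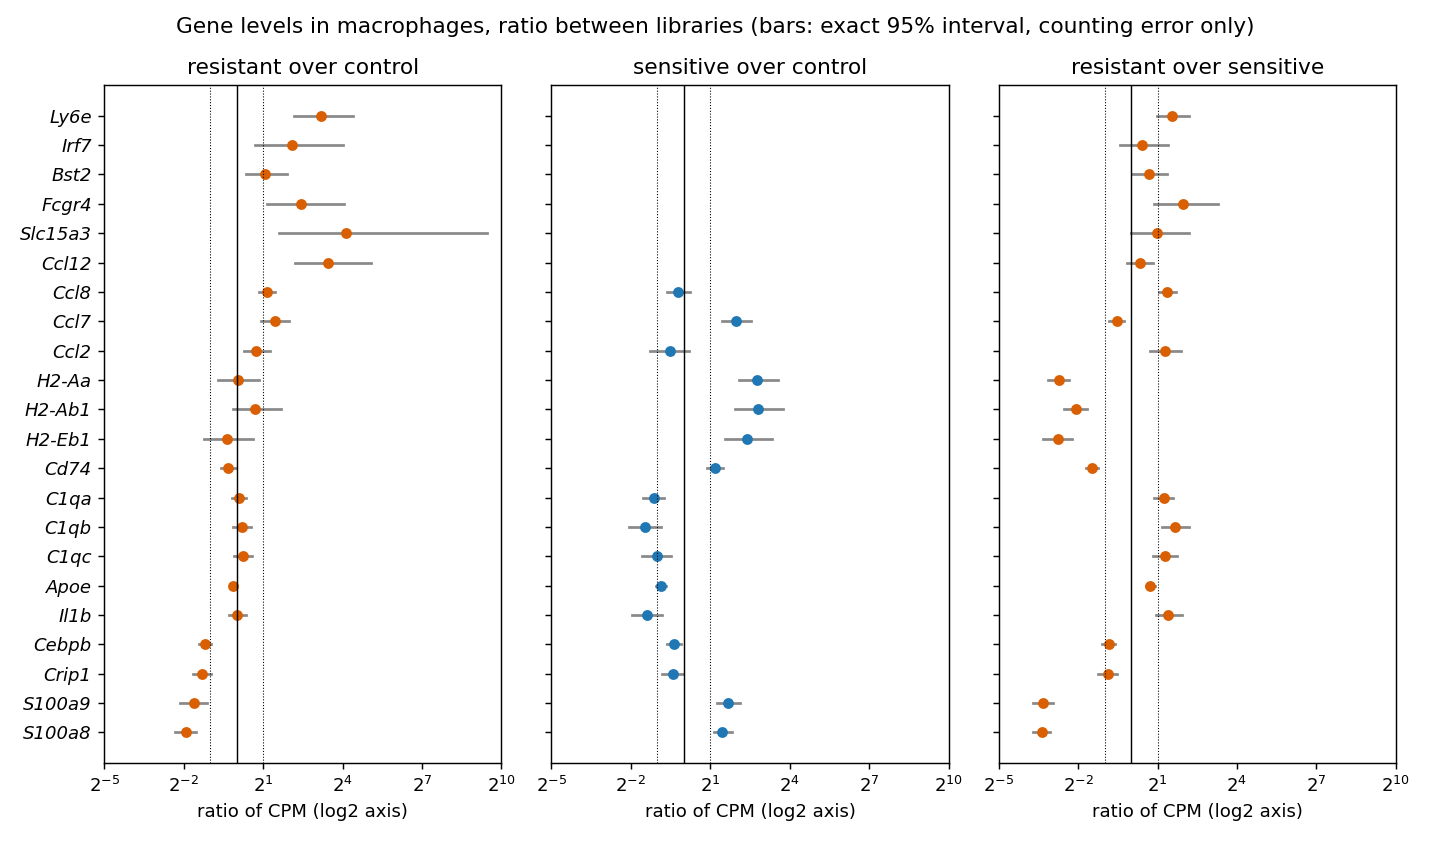
Ratio of CPM between macrophages of 2 libraries (x axis, log2 scale) for 22 genes in each of the 3 pairs. Points are ratios, bars exact 95% intervals for counting error, dotted lines 2-fold, and genes with fewer than 50 UMIs over both libraries are left blank; H2-Aa, H2-Ab1 and H2-Eb1 lie to the right in sensitive over control and to the left in resistant over sensitive.

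Sensitive-labelled macrophages held more MHC class II transcript than those of both other libraries. Of 5 MHC class II genes compared with the control-labelled library, 4 were past 2-fold higher (H2-Aa, H2-Ab1, H2-Eb1 and Cd74), against 5.11% of all compared genes, and the median log2 ratio was 2.39 beside -0.03 over all. H2-Aa, H2-Ab1 and H2-Eb1 encode chains of the surface molecules that display peptides to CD4+ T cells and lie together on chromosome 17 (GRCm38), H2-Ab1 at 34257689 to 34269419, H2-Aa at 34282744 to 34287823 and H2-Eb1 at 34305867 to 34316674. Cd74 encodes the invariant chain that guides them.

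H2-Ab1 stood at 246 CPM (131 to 421) in control-labelled, 1706 (1376 to 2093) in sensitive-labelled and 399 (323 to 488) in resistant-labelled macrophages. Sensitive over control came to 6.94 (3.86 to 13.5), and resistant over sensitive to 0.234 (0.174 to 0.315). Per cell the H2-Ab1 median was 7.57 UMIs per 10000 in the sensitive-labelled library and 0 in the other two, and the ranges overlapped, with highest values of 15.3, 56.4 and 30.7. H2-Eb1 had the same order, at 265, 1391 and 206 CPM, with ratios of 5.25 (2.94 to 10.1) for sensitive over control and 0.148 (0.101 to 0.215) for resistant over sensitive. Cd74 stood at 2422, 5434 and 1948 CPM, with ratios of 2.24 (1.82 to 2.78) and 0.359 (0.309 to 0.416).

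For H2-Aa the levels were 359, 2448 and 370 CPM, with 6.81 (4.19 to 11.7) for sensitive over control and 0.151 (0.114 to 0.199) for resistant over sensitive. One sensitive-labelled cell, the deepest of that library, held 78 of the 132 H2-Aa UMIs, and without the richest cell of each library the ratios were 5.02 and 0.189. That same cell held 160 of the 162 Ccl5 UMIs. The class II result depended on the rule. With 2 of 8 genes required in place of 3, the sensitive over control ratios were 1.08 for H2-Aa, 1.16 for H2-Ab1, 0.958 for H2-Eb1 and 1.02 for Cd74. The Cd74 ratio was also below 2-fold with 4 of 8 genes (1.09) and with at least 2 C1q genes (1.49). Without members in the neutrophil gate, which left 3 sensitive-labelled cells, they were 10.6, 4.45, 6.71 and 3.93.

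The H2-Aa and H2-Eb1 promoters are shown because both hold the letters CTGATTGG, the Y box of class II promoters, 51 and 62 bases before the start. The 150 bases before the start in RefSeq (GRCm38.p6) are given 5′ to 3′ on the strand of the gene with the match in capitals, for H2-Aa chr17:34287824-34287973 (minus strand) and for H2-Eb1 chr17:34305717-34305866 (plus strand).
H2-Aa: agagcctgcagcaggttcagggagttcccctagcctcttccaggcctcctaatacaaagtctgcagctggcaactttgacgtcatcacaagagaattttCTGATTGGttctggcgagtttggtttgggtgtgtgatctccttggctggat
H2-Eb1: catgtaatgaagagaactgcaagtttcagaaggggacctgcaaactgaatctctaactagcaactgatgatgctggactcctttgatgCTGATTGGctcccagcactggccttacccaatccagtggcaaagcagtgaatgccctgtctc

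On either strand these letters occurred in 3.16% of the 32851 promoters within 150 bases and in 4.10% within 300. H2-Ab1 had no entry. No other of the 7 class II list genes with a promoter in the table held them.

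C1qa, C1qb and C1qc lie next to each other on chromosome 4 (136880129 to 136898803, GRCm38) and had the same order of levels. As rule genes their levels are descriptions. They stood at 3065, 1722 and 1703 CPM in control-labelled, 1391, 631 and 835 CPM in sensitive-labelled, and 3259, 1986 and 2007 CPM in resistant-labelled macrophages. All 3 C1q genes were found in 7 of 13, 2 of 10 and 28 of 36 cells. The sensitive over control ratios of 0.454, 0.366 and 0.490 were set by few cells. In the control-labelled library 85 of 162 C1qa UMIs were in the deepest macrophage, and without the deepest cell of each library the ratios were 0.995, 0.739 and 1.02. Other choices moved them the opposite way, to 0.152, 0.0768 and 0.160 without the cell richest in each gene and to 0.0774, 0.0879 and 0.0381 without members in the neutrophil gate.

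Other genes differing between sensitive-labelled and control-labelled macrophages included chemokines and inflammatory mediators. Of 9 chemokines compared 4 were past 2-fold higher (Ccl5, Ccl6, Ccl7 and Ccl9), against 5.11% of all compared genes, with nearly all Ccl5 UMIs in the 1 cell given above. Ccl6 stood at 1835, 3839 and 3552 CPM, and Ccl9, a ligand of Ccr1, at 757, 1706 and 945 CPM, with sensitive over control ratios of 2.09 (1.64 to 2.69) and 2.25 (1.54 to 3.36). By the mean over cells these were 1.25 and 1.65, and without the deepest cells 1.33 and 1.47. Hilpda, a hypoxia-induced lipid droplet protein, gave 14 and 48 UMIs, a ratio of 3.36 (1.82 to 6.60) that was 1.57 with 2 of 8 rule genes and 1.76 after thinning. Both metallothioneins, Mt1 and Mt2, were past 2-fold higher, but each was below 1 when only macrophages with at least 2 C1q genes were used. Clec7a, the receptor for fungal glucans, had 56 of its 68 sensitive-labelled UMIs in 1 cell, and its ratio of 3.92 was 0.210 with 4 of 8 rule genes required.

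On the lower side, Il1b, the inflammatory cytokine interleukin 1 beta, stood at 1892, 723 and 1915 CPM, a sensitive over control ratio of 0.382 (0.257 to 0.559). With 2 of 8 rule genes required it was 1.497. Lyz2, lysozyme of myeloid cells, stood at 6186, 2819 and 6555 CPM, a ratio of 0.456 (0.373 to 0.554). The Lyz2 ratio was nearer 1 without the deepest cells (0.777), with at least 2 C1q genes (0.779), with 4 of 8 rule genes (0.724) and by the mean over cells (0.657). Hsp90b1, an endoplasmic reticulum chaperone, gave 40 control-labelled and 14 sensitive-labelled UMIs, a ratio of 0.343 (0.172 to 0.644) that was 0.733 with 2 of 8 rule genes. The other genes named by the rule at the lower end were C1qb, Atp1b3, Capza2, Serinc3, Chchd2, Osm and C1qc, and at the upper end H2-Ab1, H2-Eb1, Cd74, Gm11478, Cd44 and Il1rn besides those above.

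Between the 2 treated libraries, resistant-labelled macrophages had less class II and more Il1b and Isg15 transcript than sensitive-labelled ones. Of 6 class II genes compared 4 were past 2-fold lower, against 5.28% of all compared genes, though with 2 of 8 rule genes H2-Ab1 was at 0.539 and Cd74 at 0.692, and with 4 of 8 Cd74 was at 0.638. Il1b had a ratio of 2.65 (1.91 to 3.77), which was 1.62 without members in the neutrophil gate and 1.58 with 2 of 8 rule genes. That of Isg15 was 1.67 after thinning and 1.93 with at least 2 C1q genes. Of 10 inflammatory list genes compared in the same pair, 3 were past 2-fold higher (Il1b, Il1a and Nfkbiz), against 8.68% of all compared genes. Lower were 2 (Il1rn and Saa3), against 5.28%. Il1a and Nfkbiz had 2 and 1 sensitive-labelled UMIs, and Il1a was 0.846 with 2 of 8 rule genes. Il1rn turned to 1.48 with 4 of 8 rule genes, and Saa3 to 1.26 without the richest cell. Cybb, the catalytic subunit of the phagocyte oxidase, gave 6 sensitive-labelled and 99 resistant-labelled UMIs, a ratio of 3.74 (1.66 to 10.4) that was 1.94 after thinning. Of 14 chemokines compared, 5 were past 2-fold higher (Ccl2, Ccl4, Ccl8, Cxcl1 and Cxcl14), against 8.68% of all compared genes, and 2 lower (Ccl5 and Ccl24). Ccl24 turned to 1.25 with 4 of 8 rule genes and 1.95 with at least 2 C1q genes, and Ccl5 to 1.21 without the deepest cells. Of the higher ones, Cxcl14 turned to 0.931 without members in the neutrophil gate. Ccl2 was below 2-fold with 2 of 8 rule genes (1.53), with 4 of 8 (1.77), without the deepest cells (1.89) and after thinning (1.98), Ccl8 with 4 of 8 (1.75) and with at least 2 C1q genes (1.28), and Ccl4 with 2 of 8 (1.15).

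Of 11 alternative activation and tissue residence genes compared with the sensitive-labelled library, 3 (Mrc1, Stab1 and Maf) were past 2-fold lower, against 5.28% of all compared genes. None was past 2-fold higher, against 8.68%, and the median log2 ratio was -0.48 beside 0.06 over all compared genes. Mrc1 is a rule gene. Stab1, a scavenger receptor, gave 22 sensitive-labelled and 34 resistant-labelled UMIs, a ratio of 0.350 (0.199 to 0.628), and Maf, a transcription factor of resident macrophages, gave 37 and 59, a ratio of 0.361 (0.235 to 0.560). Without members in the neutrophil gate the ratios of Stab1 and Maf turned to 3.22 and 1.02, so neither direction held. The remaining genes named by the rule were Rabac1, Tcn2, AW112010, Sqstm1 and Adam8 among the higher and Rpl29, Cd300lf, S100a6, Gm26917 and Maff among the lower.

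**Figure D4:**
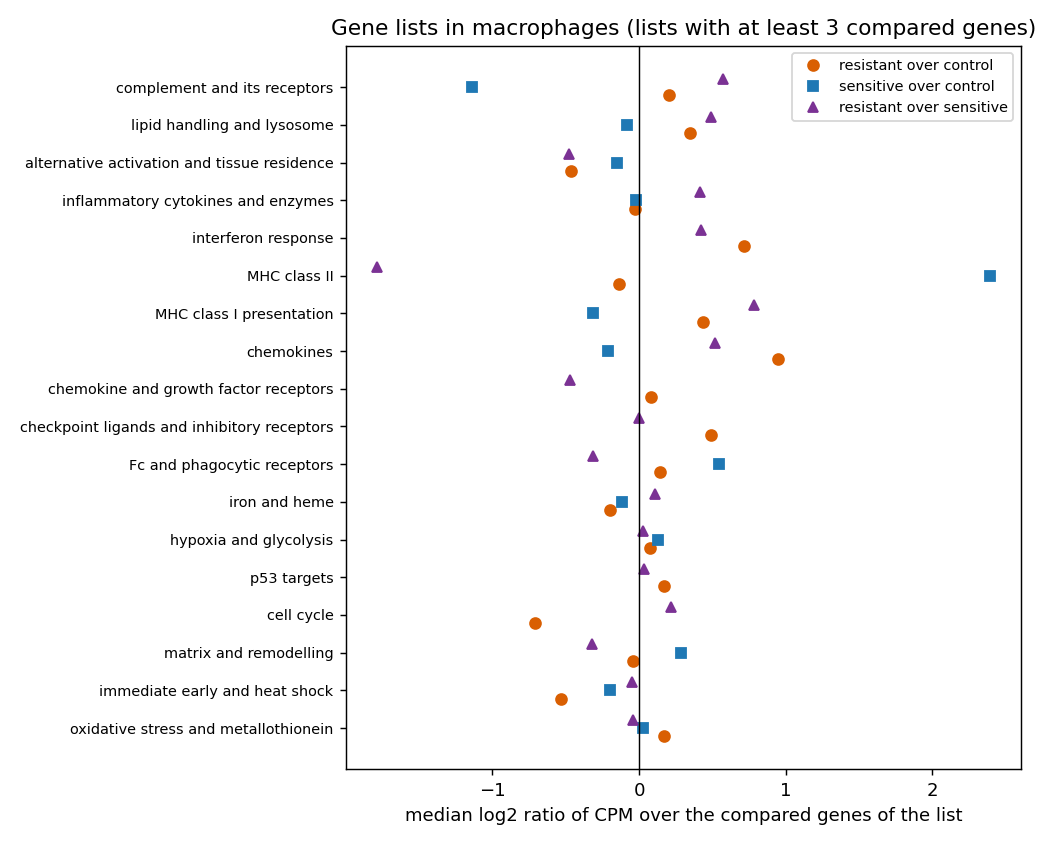
Median log2 ratio of CPM in macrophages (x axis) over the compared genes of each of 18 gene lists, for the 3 pairs of libraries; lists with fewer than 3 compared genes in a pair have no symbol there. The MHC class II list has the points farthest from 0, at 2.39 for sensitive over control and -1.79 for resistant over sensitive.

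Several gene lists had few members past 2-fold between resistant-labelled and control-labelled macrophages. Over all genes compared in this pair, 7.21% were past 2-fold higher and 3.67% lower, with a median log2 ratio of 0.02. In lists this short a count of 1 does not set a list apart from that share. None of 7 MHC class I presentation genes passed 2-fold between resistant-labelled and control-labelled macrophages, though all 7 had ratios above 1 (median log2 ratio 0.44). Of 15 hypoxia and glycolysis genes 1 was past 2-fold higher (Hilpda) and 1 lower (Ndrg1), with a median of 0.07, but after thinning Ndrg1 turned to 2.44 and Hilpda was at 1.59. Of the 18 p53 targets, read because DOX damages DNA, 3 had enough UMIs to compare and none passed 2-fold. Of 20 cell cycle genes 3 could be compared. Of 17 lipid handling and lysosome genes, 13 had ratios above 1 and 1, Fabp5, was past 2-fold lower, with a median of 0.35. Of 13 immediate early and heat shock genes, 10 had ratios below 1 and 1, Atf3, was past 2-fold lower, with a median of -0.53, but Atf3 turned to 5.80 without members in the neutrophil gate. The matrix and remodelling, iron and heme, and oxidative stress lists had no gene past 2-fold in this pair. Of 6 chemokine and growth factor receptors none passed 2-fold, and of 5 checkpoint ligands and inhibitory receptors 1 was higher, Cd47, the ligand that restrains phagocytosis, at 2.28, which was 1.93 without members in the neutrophil gate, 1.77 with 2 of 8 rule genes and 1.83 after thinning.

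Macrophages of 1 library were themselves mixed in class II and C1q. Split after the values had been seen, 4 of 13 control-labelled, 5 of 10 sensitive-labelled and 11 of 36 resistant-labelled macrophages held UMIs of at least 2 of H2-Aa, H2-Ab1 and H2-Eb1. Deeper cells meet this more easily, and the split was not repeated at equal depth, so the part of depth in it was not tested. In the sensitive-labelled library the 5 class II cells held 5 C1qa UMIs and the other 5 held 70, or 159 against 3121 CPM, but 62 of the 70 were in 1 cell, and without it the others stood at 539 CPM. In the resistant-labelled library C1qa stood at 2986 CPM in the 11 class II cells and 3437 CPM in the other 25. In the control-labelled library C1qa stood at 4536 CPM in the 4 class II cells and 1615 in the others, but 1 class II cell held 85 of the 119 UMIs, and without it the ratio was 1.39 (0.858 to 2.23).

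Chemokines were read along the same split, with and without the cell richest in the gene, an alternative chosen after seeing the data. In the sensitive-labelled library none of the 140 Ccl7, 87 Ccl8 and 44 Ccl12 UMIs were in class II cells. The cell richest in each gene held 103, 78 and 29 of them, which left 37, 9 and 15. The cell richest in Ccl8 was not the one richest in Ccl12. In the resistant-labelled library Ccl12 stood at 234 CPM in class II cells and 1541 in the others, a ratio of 0.152 (0.0931 to 0.235) that was 0.216 without the richest cell. Ccl2 and Ccl7 followed it with ratios of 0.280 and 0.218, and 0.312 and 0.230 without it. For Ccl8 the ratio of 1.54 (1.36 to 1.75) was set by 1 class II cell with 447 of the 988 UMIs, and without it turned to 0.165 (0.121 to 0.222). Ly6c2 and Ccr2, both monocyte genes, were higher in the class II cells there, with ratios of 5.18 (2.74 to 10.5) and 2.57 (1.53 to 4.40), and 2.73 (1.32 to 5.90) and 2.16 (1.23 to 3.83) without the richest cell. The monocyte marker Plac8 was not, at 1.24 (0.943 to 1.63), and at 0.873 (0.637 to 1.19) without its richest cell. Chil3, also a monocyte marker, was at 22.7 with 100 of its UMIs in 1 cell, and at 1.03 without it. In the sensitive-labelled library Ccl24 had a ratio of 4.17 (2.35 to 7.97), with 48 of the 82 UMIs of class II cells in 1 cell, and 2.95 (1.54 to 5.95) without it. Ccl6 in the control-labelled library had a ratio of 2.16 (1.39 to 3.43), which was 1.25 (0.738 to 2.12) without the richest cell. Its sensitive-labelled and resistant-labelled ratios were 1.23 and 0.664, and 0.639 and 0.970 without it. Mrc1 had ratios of 0.326, 0.182 and 0.335 in the control-labelled, sensitive-labelled and resistant-labelled library, and 0.477 (0.184 to 1.16), 0.2204 (0.0986 to 0.459) and 0.432 (0.252 to 0.713) without its richest cell.

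**Figure D5:**
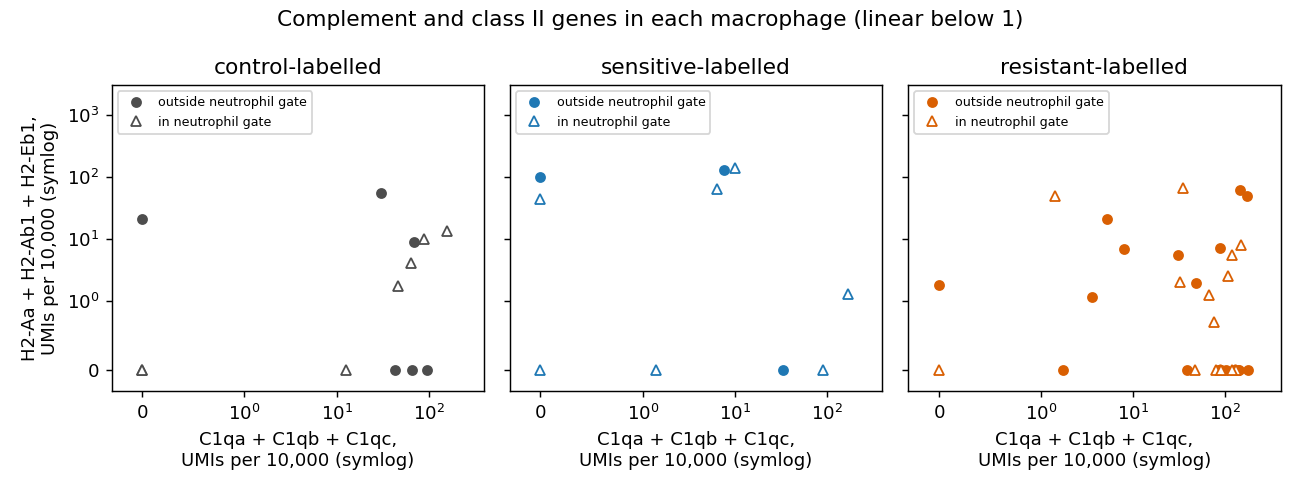
Summed C1qa, C1qb and C1qc (x axis) against summed H2-Aa, H2-Ab1 and H2-Eb1 (y axis) in each macrophage, in UMIs per 10000 on symmetrical log axes that are linear below 1, with 1 panel for each library. Open triangles are cells that also pass the neutrophil gate; the 5 sensitive-labelled cells with at least 2 class II genes lie at or below 10.1 UMIs per 10000 of C1q.

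Set beside neutrophil-gated cells of the same library, 61 of 1053 genes compared in all 3 libraries, or 5.79%, were at least 2-fold higher in macrophages each time. In the control-labelled, sensitive-labelled and resistant-labelled library taken singly it was 13.5%, 22.9% and 12.3% of the genes compared. Beyond rule genes the 61 included the lysosomal genes Ctsb, Ctss, Psap and Npc2, the protease gene Lgmn and 6 of 12 chemokines compared (Ccl2, Ccl6, Ccl7, Ccl8, Ccl9 and Ccl24). Lgmn was 65.6-fold, 25.9-fold and 44.6-fold higher in the control-labelled, sensitive-labelled and resistant-labelled library. None of the 15 inflammatory cytokine genes compared met this, and Il1b stood below the neutrophil level in each library, at 0.738, 0.123 and 0.784 of it.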

How the data were processed

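Whole-tumor cells were measured by droplet 3′ single-cell RNA sequencing in 3 of the 5 libraries of the series; the 2 T cell libraries were not used here. The deposited values are whole UMI counts per gene and barcode, made by the authors with Cell Ranger 3.0.1 against mm10, and are not normalized. Many files' symbols were spelled unusually, so 54079 of 54987 features were matched by Ensembl ID to GENCODE names. The 37 mitochondrial features held no UMI.

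Barcodes with at least 200 detected genes were kept, and doublets were not removed. The members and gene lists were chosen with earlier results of these data known. Counts were summed over the macrophages of a library and given as CPM. Exact 95% intervals were Poisson for levels, Clopper-Pearson for shares and conditional binomial for ratios of levels, and ratios of shares used a log-scale approximation; all cover counting error only. With 1 library a group there was no test. A library with 0 UMIs was set to a floor of 3 counts. The rule for named genes took the 10 highest and 10 lowest ratios per pair among genes with at least 50 UMIs over both libraries, at least 5 macrophages with a UMI in the higher library and no cell holding over 50% of its UMIs; other genes named come from the gene lists. Some genes that the rule or lists would name are not reported here. Barcodes were thinned to 1000 UMIs with a fixed seed. Interval scripts were tested on simulated data. Python 3.11.15, numpy 2.4.6, pandas 2.3.3, scipy 1.17.1 and matplotlib 3.10.9 were used. Alternatives changed the number of rule genes, the depth, the minimum UMIs, the scaling and the cells included. Those keeping cells with at least 2 C1q genes, keeping cells with at least 2000 UMIs, or leaving out the richest cell for a gene (also within a library for the class II split) were chosen after seeing the data.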

Additional observations from a re-analysis of the deposited data

Results flagged for a closer look

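For 17 gene ratios the macrophages and the neutrophil-gated cells of the same libraries differed in opposite directions, each by at least 2-fold and with a counting interval that left out 1. They come from 1824 gene ratios over the 3 pairs that met the naming rule in macrophages, and the same minimums of 50 UMIs and 5 cells and the limit of 50% of UMIs in 1 cell were then asked of the neutrophil-gated cells. That limit left out H2-Aa and Ccl5, which also differed in opposite directions in resistant over sensitive. The difference between the cell groups was not tested, since each group has 1 library. All values are ratios of CPM.

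In resistant over control, Pdpn was 3.77 in macrophages and 0.270 in neutrophil-gated cells. Without the richest cell its macrophage ratio could be bounded only as at least 2.68, against a floor of 3 counts. The lowest value or bound of that ratio under the alternatives was 1.93. In sensitive over control, Cd74 was 2.24 in macrophages and 0.397 in neutrophil-gated cells, with a macrophage ratio of 1.02 with 2 of 8 rule genes, 1.09 with 4 of 8 and 1.49 with at least 2 C1q genes, and Il1b was 0.382 and 2.30, but with 2 of 8 rule genes the macrophage ratio of Il1b was 1.497.

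In resistant over sensitive, MHC class II genes were lower in macrophages and higher in neutrophil-gated cells. Cd74 was 0.359 in macrophages and 9.65 in neutrophil-gated cells, H2-Ab1 0.234 and 2.23, and H2-Eb1 0.148 and 4.79. Lamtor4 and S100a6 shared that direction, Lamtor4 at 0.489 and 2.07 and S100a6 at 0.379 and 2.13, but without macrophages in the neutrophil gate their macrophage ratios were 3.89 and 1.56, in the same direction as the neutrophil-gated cells.

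In the same pair, 9 genes were higher in macrophages and lower in neutrophil-gated cells. Il1a was 6.23 in macrophages and 0.390 in neutrophil-gated cells, Il1b 2.65 and 0.414, Ccl4 3.09 and 0.274, Ccr1 2.45 and 0.323, Fcgr4 3.88 and 0.410, and Adam8 3.70 and 0.293. Isg15 was 4.37 and 0.317, Samhd1, an enzyme that breaks down nucleotides, 2.54 and 0.409, and Tcn2 6.68 and 0.390. With 2 of 8 rule genes the macrophage ratios of Il1a and Adam8 were 0.846 and 0.953, in the same direction as the neutrophil-gated cells, and after thinning that of Samhd1 could be bounded only as at least 0.741, against a floor of 3 counts.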

How the results depend on the processing

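No paired analysis was possible because each group has 1 library, which also leaves no replicate to leave out. The resistant over control share ratio stayed between 4.28 and 7.22 under the alternatives run, and resistant over sensitive between 1.88 and 6.82, while sensitive over control ran from 0.834 to 2.27. With 2 of 8 genes the sensitive-labelled and resistant-labelled shares were 7.06% and 22.4%, and after thinning to 500 UMIs 1.54% and 9.51%. Without neutrophil-gated cells in the denominator the control-labelled, sensitive-labelled and resistant-labelled shares were 9.35%, 21.3% and 40%, and without macrophages in the neutrophil gate 1.23%, 1.12% and 7.60%.

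Counts of genes past 2-fold are given for resistant over control, sensitive over control and resistant over sensitive in that order. They were 372, 109 and 457 with a minimum of 20 UMIs, 30, 16 and 45 with 100, 2019, 1410 and 2282 with no minimum, and 20, 4 and 21 after thinning to 1000 UMIs, where fewer genes reached the minimum. The resistant over control count was 130 by the mean over cells, 47 without macrophages in the neutrophil gate and 154 with 2 of 8 genes, where sensitive over control was 69.

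Of 129 named ratios under 1289 alternative values, 900 moved little, 337 moved and 52 changed side of 1. The 52 cover only ratios that were past 2-fold in the main comparison. Ratios within 2-fold that crossed 1, such as those of Isg15 and Cd74 in resistant over control, are counted among the 900 and 337. In 46 of the values 1 library held no UMI and was set to a floor of 3 counts, which gives a bound, and a bound that leaves the side of 1 unsettled is not among the 52. Past 2-fold in every alternative were Ccl12, Ccl7, Fabp5, Fcgr4, Ly6e and S100a8 for resistant over control (6 of 36), and Fcgr4, Gm26917, H2-Aa, H2-Eb1 and Tcn2 for resistant over sensitive (5 of 40), and 0 of 27 for sensitive over control. The cause of the changes below was not tested.

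For resistant over control, leaving out macrophages in the neutrophil gate gave Atf3 5.80, Hmgb1 1.84, Pf4 13.9, Cxcl14 0.709 and Ccl24 1.38. The mean over cells gave Pf4 1.21. Requiring 4 of 8 genes gave Cxcl1 7.11 and Saa3 1.11. Thinning gave Ndrg1 2.44 and Pf4 1.11. Cells with at least 2 C1q genes gave Ccl24 1.15, Cxcl2 1.40, Cxcl1 5.53 and Saa3 1.12. Without the richest cell Pf4 was 4.75 and Cxcl1 6.52.

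For sensitive over control, leaving out the deepest cells gave C1qc 1.02 and Mt2 0.876. Leaving out macrophages in the neutrophil gate gave Cd44 0.806, Ccl7 at most 0.685, S100a8 0.666 and S100a9 0.966. With 4 of 8 genes Mt2 was 0.990 and Clec7a 0.210, and with 2 of 8 H2-Eb1 was 0.958, Il1b 1.497, S100a8 0.308 and S100a9 0.416. Thinning gave Capza2 1.38 and Serinc3 1.10. Cells with at least 2 C1q genes gave Osm 1.11, Mt1 0.996, Mt2 0.105 and Clec7a 0.197.

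For resistant over sensitive, leaving out the deepest cells gave Ccl5 1.21. Leaving out macrophages in the neutrophil gate gave Stab1 3.22, Maf 1.02, S100a6 1.56, Cxcl14 0.931, Saa3 7.79 and Lamtor4 3.89. With 4 of 8 genes Ccl24 was 1.25, Il1rn 1.48 and Clec7a 5.57, and with 2 of 8 Il1a was 0.846 and Adam8 0.953. Cells with at least 2 C1q genes gave Cd300lf 1.26, Ccl24 1.95, Il1rn 1.80, Saa3 1.91 and Clec7a 6.05. Without the richest cell Saa3 was 1.26.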
